A study of Mus musculus with 24 samples.

Results

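The 5 hippocampal libraries of stressed mice labelled as lacking the interleukin-1 receptor 1 (IL-1R1) in neurons were compared with the 6 libraries of stressed wild-type mice, which together are 11 of the 24 libraries of the series. The members were chosen by title alone: genotype knockout (KO) or wild type (WT), both exposed to social defeat by paired fighting, an aggressive encounter between mice used as a psychosocial stressor. No measured value entered the choice. All mice are labelled C57BL/6, and the tissue is micro-dissected hippocampus. The remaining 13 libraries, 6 KO control and 7 WT control, come from mice that were not stressed. The series title places the deletion in neurons, so by that label endothelial, glial and immune cells of the KO mice keep their own Il1r1 gene. The Cre driver, whether WT mice carried a floxed allele, the age of the mice, the number of defeats and the time of dissection are not named in the sources used here. The comparison asks how the hippocampal transcriptome of stressed mice differs when the receptor is deleted in neurons, and the per-gene counts did not show the deletion in these libraries.

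Interleukin-1β is a cytokine released mainly by activated myeloid cells and microglia. It binds IL-1R1, which pairs with the accessory protein Il1rap and signals through MyD88, IRAK kinases and TRAF6 to NF-κB and MAP kinases, and the antagonist Il1rn competes for the receptor. In the brain the receptor is found on endothelial, ependymal and choroid plexus cells, and dentate granule neurons are the best described neuronal site in the hippocampus. Repeated social defeat is known to bring monocytes to the brain and to activate its endothelium, and interleukin-1 signalling is one of the pathways studied in both.

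Each library held 26157103 to 35148198 counts, and 3 counts, taken as the floor, stood at 0.0854 to 0.115 CPM (counts scaled to a common library size). Levels are given in CPM, differences as log2 fold changes of KO stress minus WT stress with a standard error (SE), and spreads as SD over libraries. Libraries also fell into 2 classes by replicate number: in replicates 1 and 2 of both genotypes the ribosomal precursor Rn45s stood at 29059 to 42577 CPM, and in replicates 3 and above at 4238 to 8272 CPM. The fit therefore carried a term for this class. The Y-linked Ddx3y stood at 20.9 to 30.8 CPM and Xist at no more than 0.712 CPM in every one. Hippocampal markers were present in all 11 libraries, Neurod6 at 64.3 to 211 CPM and Prox1 at 4.24 to 13.8 CPM. The first principal component, with 40.4% of the variance, set KO stress replicates 1, 2, 3 and 5 with WT stress replicates 2 and 5 on one side and KO stress replicate 4 with WT stress replicates 1, 3, 4 and 6 on the other. The second, with 18.0%, followed the replicate class. Whether every library is from its own mouse is not stated, so p-values measure the spread between these libraries, which may in part be technical.

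**Figure D1:**
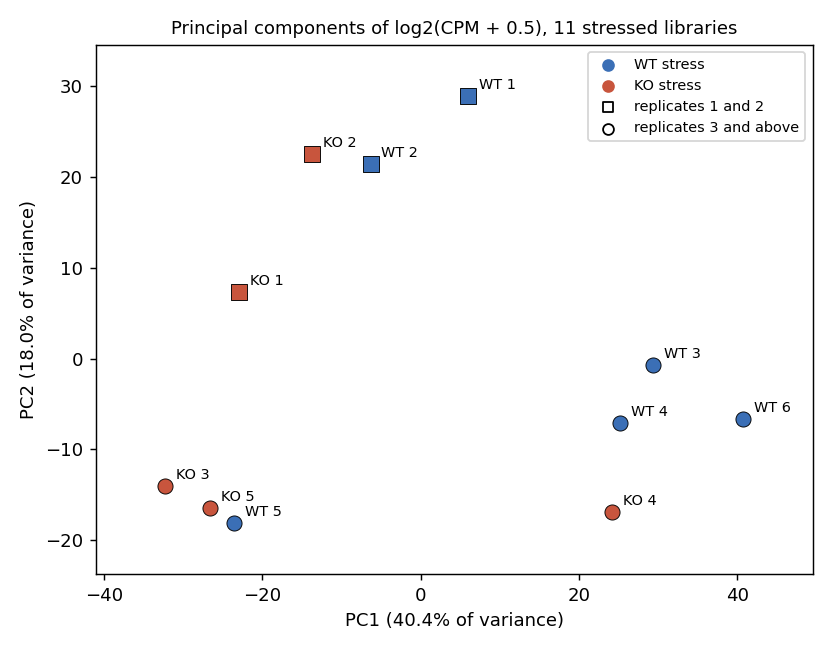
First and second principal components of log2(CPM + 0.5) over 15794 genes in the 11 stressed libraries (axes in component units); colour gives the genotype and shape the replicate class, 1 point per library. The first component holds 40.4% and the second 18.0% of the variance, and KO and WT libraries lie on both sides of the first.

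Il1r1 itself, the targeted gene, stood at 3.84, 3.77, 5.71, 6.44 and 7.93 CPM in KO stress replicates 1 to 5 and 3.36 to 7.31 CPM (median 5.54) in the WT stress libraries. The groups overlapped over nearly their whole range. Means were 5.54 ± 1.77 CPM in KO stress and 5.56 ± 1.45 CPM in WT stress, and the log2 fold change was 0.028 ± 0.15, 95% interval -0.29 to 0.35, adjusted p = 0.959. Permuting the genotypes (exact test on log2(CPM + 0.5), two-sided) gave a difference of -0.0175 and p = 0.942 over 462 regroupings, of which the smallest possible p is 0.00216. The deposited counts are summed per gene, so a deletion of single exons cannot be seen in them, and neurons cannot be told apart from the other cells of the tissue that carry the receptor. Il1r1 lies on the plus strand of chromosome 1, from 40225080 to 40317257 in GRCm38 (GENCODE M21), and is protein coding. Among the 60 other tested genes within 5 Mb of it, 3 were higher and 1 was lower in KO at an unadjusted p under 0.05 (3.24% and 2.65% of all genes). Their median log2 fold change was 0.025.

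The 10 tested genes nearest to Il1r1, 5 on each side, gave no adjusted p under the threshold. On one side lie Cnot11, Rnf149, Creg2, Map4k4 and Gm16894. Slc9a4, Slc9a2, Mfsd9, Pou3f3 and Mrps9 follow on the other. Map4k4, a kinase upstream of JNK, was at 126 ± 22.4 CPM in KO stress and 109.9 ± 13.8 CPM in WT stress (0.21 ± 0.12, adjusted p = 0.702). Gm16894, the single neighbour with an unadjusted p under 0.05, was at 0.721 ± 0.238 CPM in KO stress and 0.411 ± 0.143 CPM in WT stress, with a log2 fold change of 0.81 ± 0.37, 95% interval 0.010 to 1.62, adjusted p = 0.702. Slc9a2, a sodium-proton exchanger, was at 5.68, 5.06, 11.2, 20.04 and 12.9 CPM in KO stress replicates 1 to 5 and 7.32 to 23.1 CPM (median 14.4) in the WT stress libraries, with the lower values of both genotypes in replicates 1 and 2. Its log2 fold change was -0.36 ± 0.18, 95% interval -0.74 to 0.026, adjusted p = 0.702 under stress and -0.52 (adjusted p = 0.999) between KO and WT controls. For Slc9a4, from the same family, the values were -0.14 under stress and -0.64 (adjusted p = 0.999) in controls.

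Across the 15794 genes tested, 0 (0%) differed between KO and WT under stress at an adjusted p of 0.05 (edgeR quasi-likelihood test, Benjamini-Hochberg adjustment), and the smallest adjusted p was 0.702. DESeq2 and limma voom also called 0. At an unadjusted p under 0.05 there were 931 genes where an even spread of p-values gives 790: 512 (3.24% of those tested) higher and 419 (2.65%) lower in KO. In 23 genes (0.146%) every KO library lay above every WT library, and in 17 (0.108%) every KO library lay below. The median log2 fold change was 0.00025, and the median size of a difference 0.11 on the log2 scale. What differences this design could have missed is set by the width of the intervals. For 85.3% of genes the 95% interval, not adjusted for the number of genes, lay within a 2-fold difference in either direction, and for 69.1% within 1.5-fold. Among the 10265 genes with a mean of at least 10 CPM these shares were 97.4% and 90.2%. Among the 2304 genes at 100 CPM or more they were 98.7% and 91.8%.

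In the same fit 203 genes (1.29%) were higher and 133 (0.842%) lower in replicates 3 and above than in replicates 1 and 2. The split by replicate number thus passed the threshold in 336 genes and the split by genotype in 0. No gene (0%) had a genotype difference that itself differed between the classes (interaction test, 389 genes at an unadjusted p under 0.05, edgeR; DESeq2 called 2). The 5 smallest p of that test belonged to Adora2a, Ppp1r1b, Rasd2, Mpeg1 and Tmem181c-ps. Adora2a, an adenosine receptor of striatal neurons, was at 27.1, 21.5, 5.77, 3.44 and 4.08 CPM in KO stress replicates 1 to 5 and 2.52 to 5.47 CPM (median 4.01) in the WT stress libraries. KO stress replicates 1 and 2 stood above all the others. The dopamine-regulated phosphatase inhibitor Ppp1r1b had the same order, with 251, 250.3, 107, 109 and 70.3 CPM in KO stress replicates 1 to 5 and 95.4 to 135 CPM (median 113) in the WT stress libraries.

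**Figure D2:**
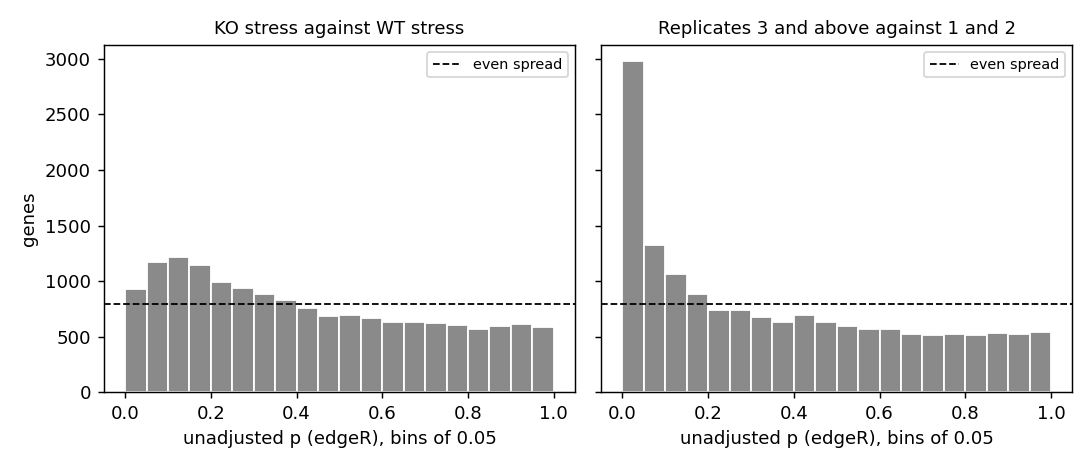
Unadjusted p-values of the 15794 genes in bins of 0.05 (x axis) against the number of genes (y axis), for KO stress against WT stress on the left and for replicates 3 and above against 1 and 2 on the right; the dashed line is an even spread, 790 genes a bin. The genotype panel has 931 genes in its first bin and its highest bin, 1216 genes, between 0.1 and 0.15, and the class panel is highest in its first bin, with 2979.

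The 20 genes with the smallest p and a mean of at least 1 CPM are given as values, since none passed the threshold: unadjusted values ran from 0.000776 to 0.00338, and the adjusted p of each was 0.702. Of them 11 were higher and 9 lower in KO. All 20 had the same sign in replicates 1 and 2 alone as in replicates 3 and above alone, which describes them only, since both classes entered the choice. In controls 8 of the 20 had the same sign. There 0 of the 20 had an unadjusted p under 0.05, against 3.98% of all genes tested in controls, so this 0 says little.

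Iqub, which encodes a protein of the ciliary axoneme, was at 1.8005, 1.96, 1.81, 1.97 and 1.55 CPM in KO stress replicates 1 to 5 and 0.675 to 1.18 CPM (median 0.899) in the WT stress libraries. No KO library overlapped a WT library, and the means were 1.82 ± 0.172 CPM in KO stress and 0.937 ± 0.177 CPM in WT stress. The log2 fold change was 0.95 ± 0.22, 95% interval 0.48 to 1.42, adjusted p = 0.702. Ada, adenosine deaminase, which converts adenosine to inosine, was at 2.39, 2.78, 1.85, 1.32 and 1.71 CPM in KO stress replicates 1 to 5 and 0.724 to 1.22 CPM (median 1.01) in the WT stress libraries, also without overlap. Its difference was 0.94 ± 0.22, 95% interval 0.47 to 1.42. Fbln7, a matrix adhesion protein, stood at 3.32, 3.597, 3.09, 2.49 and 2.797 CPM in KO stress replicates 1 to 5 and 1.06 to 2.36 CPM (median 1.67) in the WT stress libraries. Here too the highest WT library was below the lowest KO library, with a difference of 0.87 ± 0.22, 95% interval 0.41 to 1.34. Pla2g5, a secreted phospholipase A2, was at 4.501, 4.02, 3.69, 3.14 and 2.96 CPM in KO stress replicates 1 to 5 and 0.998 to 2.62 CPM (median 1.91) in the WT stress libraries (0.99 ± 0.27). Lrrc48, a part of the regulatory complex of ciliary dynein, was at 7.79, 7.83, 9.73, 7.28 and 7.14 CPM in KO stress replicates 1 to 5 and 4.87 to 6.43 CPM (median 5.63) in the WT stress libraries (0.50 ± 0.13). These 5 genes were the ones higher in KO without overlap among the 20.

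Among the genes lower in KO, Bcl2a1b, an anti-apoptotic BCL2 relative of immune cells, was at 0.519, 0.641, 0.705, 0.622 and 0.494 CPM in KO stress replicates 1 to 5 and 0.9396 to 1.93 CPM (median 1.34) in the WT stress libraries. The groups did not overlap, and the log2 fold change was -1.15 ± 0.28, 95% interval -1.75 to -0.55. This gene has near-identical copies, so its counts depend on how shared reads were assigned. In bulk tissue fewer cells of a type and less RNA per cell cannot be told apart, here and in all lists of cell type markers. Sp6, a transcription factor of the Sp family, stood at 1.25, 1.21, 0.738, 0.951 and 1.09 CPM in KO stress replicates 1 to 5 and 1.59 to 2.18 CPM (median 1.803) in the WT stress libraries (-0.85 ± 0.21). Pstk, the kinase that prepares transfer RNA for selenocysteine, was at 14.4, 15.3, 13.7, 13.7 and 14.2 CPM in KO stress replicates 1 to 5 and 15.9 to 19.9 CPM (median 17.4) in the WT stress libraries and had the narrowest spread of the 20. Its difference was -0.30 ± 0.074, 95% interval -0.46 to -0.14. Gm694 was at 2.91, 3.99, 2.58, 3.99 and 4.94 CPM in KO stress replicates 1 to 5 and 4.96 to 7.27 CPM (median 6.13) in the WT stress libraries (-0.71 ± 0.18). In all 4 the highest KO library was below the lowest WT library.

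The other 11 overlapped. The largest size belonged to Rab20, a small GTPase of endosomes, at 0.969, 1.71, 1.71, 1.28 and 0.691 CPM in KO stress replicates 1 to 5 and 0.102 to 0.9098 CPM (median 0.281) in the WT stress libraries, with a log2 fold change of 1.95 ± 0.49, 95% interval 0.88 to 3.02. The lowest WT libraries were near the floor of 3 counts. Dsc3, a desmosomal cadherin, was at 0.312, 0.499, 1.34, 0.804 and 1.25 CPM in KO stress replicates 1 to 5 and 0.739 to 3.505 CPM (median 2.698) in the WT stress libraries (-1.56 ± 0.40), and WT stress replicate 5 was the WT library inside the KO range. Maats1, a protein of motile cilia, was at 4.05, 2.49, 2.89, 2.63 and 2.204 CPM in KO stress replicates 1 to 5 and 0.476 to 2.42 CPM (median 0.951) in the WT stress libraries (1.42 ± 0.39), again with WT stress replicate 5 inside the KO range. Mib1, the ubiquitin ligase that activates Notch ligands, was at 9.16 ± 1.53 CPM in KO stress and 5.78 ± 1.91 CPM in WT stress (0.68 ± 0.17). The transcription factor Creb3l2 was at 6.49 ± 2.02 CPM in KO stress and 3.98 ± 0.9299 CPM in WT stress (0.72 ± 0.20). For Mob1a, a Hippo pathway co-activator, the values were 3.41 ± 1.31 CPM in KO stress and 1.71 ± 0.631 CPM in WT stress (1.06 ± 0.27), and for Capn6, a calpain without protease activity, 3.14 ± 1.12 CPM in KO stress and 1.85 ± 0.328 CPM in WT stress (0.77 ± 0.19). Gng13, a G protein γ subunit and the most abundant of the 20, was at 37.7 ± 9.38 CPM in KO stress and 50.1 ± 13.03 CPM in WT stress (-0.45 ± 0.12). The remaining 3 were 5031426D15Rik, Ly6g6e and LOC101056043, with log2 fold changes of -0.94, -1.10 and -0.39.

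**Figure D3:**
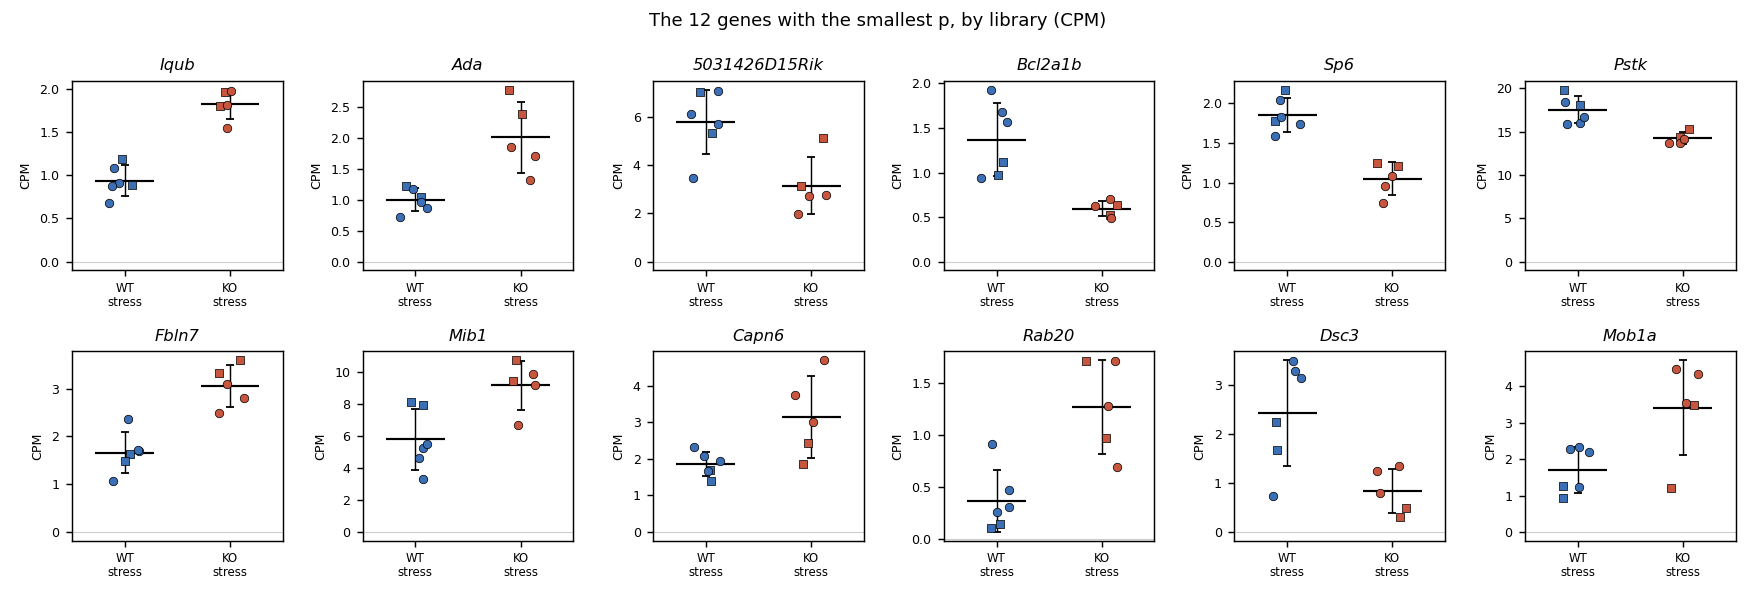
Levels in CPM (y axis, linear, from 0) of the 12 genes with the smallest p in the WT stress and KO stress libraries (x axis); squares are replicates 1 and 2, circles replicates 3 and above, the line is the mean and the bar 1 SD. Iqub, Ada, Bcl2a1b, Sp6, Pstk and Fbln7 show no overlap of the groups, and the adjusted p of each of the 12 was 0.702.

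Of the interleukin-1 family, 10 of 18 listed ligands and receptors were abundant enough to test. None passed the threshold, 0 were higher and 1 was lower at an unadjusted p under 0.05 (3.24% and 2.65% of all genes), and the median log2 fold change was -0.12. This median changed sign, to 0.019 without WT stress replicate 2 and to 0.028 with only genes of at least 1 CPM in 5 libraries, and was -0.24 without the 3 libraries that carry thalamic transcripts (WT stress replicate 5, KO stress replicates 3 and 5). Il1b, the ligand, was at 0.346, 0.0712, 0.0671, 0.878 and 0.461 CPM in KO stress replicates 1 to 5 and 0.305 to 1.12 CPM (median 0.448) in the WT stress libraries, a level of few counts that ran from below to above the floor, with a difference of -0.79 ± 0.59, 95% interval -2.08 to 0.50. Il1a was at 0.485, 0.0712, 0.4698, 0.146 and 0.658 CPM in KO stress replicates 1 to 5 and 0.139 to 0.682 CPM (median 0.462) in the WT stress libraries. Il1rn, the receptor antagonist, was not abundant enough to test and reached at most 0.176 CPM. The accessory chain Il1rap was at 21.6, 17.3, 24.2, 26.7 and 23.3 CPM in KO stress replicates 1 to 5 and 15.4 to 26.7 CPM (median 22.3) in the WT stress libraries (0.068 ± 0.10). Il18, a related ligand made by microglia, was the member with the smallest p, at 17.9, 17.5, 18.8, 16.9 and 17.3 CPM in KO stress replicates 1 to 5 and 18.02 to 22.8 CPM (median 20.02) in the WT stress libraries, and its difference was -0.19 ± 0.075, 95% interval -0.35 to -0.028, adjusted p = 0.702. For Il33, an alarmin of oligodendrocytes and astrocytes, the values were 48.4 ± 13.7 CPM in KO stress and 38.1 ± 12.6 CPM in WT stress (0.35 ± 0.24, 95% interval -0.19 to 0.89, adjusted p = 0.705).

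All 31 listed genes of the signalling chain below the receptor were tested, and the 95% intervals of 30 lay within 2-fold. Of these genes 13 had a log2 fold change above 0, the median was -0.0064, 0 were higher and 1 was lower at an unadjusted p under 0.05 (3.24% and 2.65% of all genes). That 1 was Casp1, the protease that matures interleukin-1β, at 1.38, 1.14, 1.07, 1.65 and 1.91 CPM in KO stress replicates 1 to 5 and 1.48 to 3.57 CPM (median 2.23) in the WT stress libraries, with a log2 fold change of -0.68 ± 0.26, 95% interval -1.24 to -0.12, adjusted p = 0.702. The adaptor Myd88 was at 6.198, 7.91, 6.98, 7.42 and 7.04 CPM in KO stress replicates 1 to 5 and 5.79 to 9.04 CPM (median 7.93) in the WT stress libraries (-0.11 ± 0.14). Nfkbib, an inhibitor of NF-κB, was next in order of p, at 28.8 ± 4.63 CPM in KO stress and 32.9 ± 1.61 CPM in WT stress (-0.20 ± 0.093, 95% interval -0.40 to 0.00075, adjusted p = 0.702).

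Genes known from earlier results on these libraries to be high in stressed WT mice were set beside each other in the 4 groups. Because the WT stress libraries took part in their choice, a lower KO value is not independent evidence. Lrg1, a glycoprotein of activated endothelium, was at 4.12, 5.199, 2.65, 6.76 and 9.805 CPM in KO stress replicates 1 to 5 and 7.38 to 13.7 CPM (median 10.4) in the WT stress libraries, with 4 of 5 KO libraries below the lowest WT library. Its means were 5.71 ± 2.74 CPM in KO stress and 10.7 ± 2.37 CPM in WT stress, against 2.63 ± 0.456 CPM in KO control and 2.84 ± 1.097 CPM in WT control. The log2 fold change was -0.87 ± 0.26, 95% interval -1.43 to -0.31, adjusted p = 0.702. Lcn2, lipocalin 2, an acute phase protein, was at 1.38, 1.21, 1.28, 7.28 and 13.7 CPM in KO stress replicates 1 to 5 and 4.95 to 19.9 CPM (median 7.798) in the WT stress libraries. KO stress replicates 1 to 3 were below every WT library and replicates 4 and 5 inside the WT range, with a difference of -1.19 ± 0.66, 95% interval -2.65 to 0.28, adjusted p = 0.702. Vwf, von Willebrand factor of endothelium and platelets, overlapped throughout, at 25.8, 35.3, 40.3, 69.2 and 86.99 CPM in KO stress replicates 1 to 5 and 32.02 to 74.7 CPM (median 60.7) in the WT stress libraries (-0.13 ± 0.18, 95% interval -0.54 to 0.27, adjusted p = 0.818). Alas2, the heme synthesis enzyme of red blood cell precursors, was at 17.8, 11.2, 15.3, 28.96 and 36.2 CPM in KO stress replicates 1 to 5 and 22.6 to 42.7 CPM (median 24.7) in the WT stress libraries (-0.33 ± 0.24, 95% interval -0.87 to 0.20, adjusted p = 0.707).

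Across the 18 tested genes of activated endothelium and the acute phase, 2 had a log2 fold change above 0, the median was -0.30 (controls 0.015), and 0 were higher and 6 lower at an unadjusted p under 0.05, against 2.65% lower among all genes. The median was -0.17 without KO stress replicate 3 and -0.15 without the 3 libraries with thalamic transcripts. These 6 were Lrg1, Ctla2a, Tmem252, Ackr1, Ly6a and Osmr. The list holds Lrg1, Lcn2 and Vwf and was chosen with earlier results of these data known. Its counts are therefore not independent evidence of a lower level in KO. Ackr1, the atypical chemokine receptor of venules, was at 59.8 ± 7.49 CPM in KO stress and 70.1 ± 6.8001 CPM in WT stress. Osmr, the oncostatin M receptor chain, was at 4.36 ± 1.03 CPM in KO stress and 5.74 ± 1.29 CPM in WT stress, and Ly6a, a surface protein of endothelium, at 36.8 ± 10.9 CPM in KO stress and 48.6 ± 6.77 CPM in WT stress. The summed level of the list was 205, 242, 232, 339 and 354 CPM in KO stress replicates 1 to 5 and 264, 265, 349, 348, 356 and 412 CPM in WT stress replicates 1 to 6, so the ranges overlapped. Resident endothelial and barrier genes had a median of 0.025, with 12 of 22 above 0. Among them Cldn5, the tight junction claudin, had the smallest p, at 61.9 ± 8.32 CPM in KO stress and 74.9 ± 6.36 CPM in WT stress (-0.27 ± 0.090, 95% interval -0.46 to -0.073, adjusted p = 0.702).

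Transcripts of monocytes and neutrophils, blood cells that can enter stressed tissue or remain in its vessels, had 2 of 13 tested members above 0, a median of -0.64 and 3 members lower at an unadjusted p under 0.05 (2.65% of all genes). The expression filter can be passed through the libraries of 1 genotype, so members low in KO, such as Retnlg, could enter the test mainly through WT values. The list was also chosen with earlier results of these data known. Its counts and median may thus lean towards lower in KO and are not independent evidence. S100a8, a subunit of neutrophil calprotectin, was at 0.208, 0.214, 0.403, 4.35 and 3.62 CPM in KO stress replicates 1 to 5 and 0.906 to 9.26 CPM (median 3.48) in the WT stress libraries. Its partner S100a9 was at 0.346, 0.356, 0.9397, 5.34 and 5.26 CPM in KO stress replicates 1 to 5 and 0.627 to 10.5 CPM (median 5.301) in the WT stress libraries. In both genes KO stress replicates 4 and 5 lay in the WT range, while KO replicates 1 to 3 lay near or below the lowest WT libraries. The differences were -1.35 ± 0.53, 95% interval -2.53 to -0.18, adjusted p = 0.702 for S100a8 and -1.25 ± 0.47, 95% interval -2.28 to -0.21, adjusted p = 0.702 for S100a9. Retnlg, a neutrophil resistin, was at 0, 0, 0.0671, 0.804 and 0.526 CPM in KO stress replicates 1 to 5 and 0.0697 to 1.99 CPM (median 0.8698) in the WT stress libraries (-1.87 ± 0.68, 95% interval -3.34 to -0.39, adjusted p = 0.702). The list's summed level was 19.3, 15.5, 16.4, 39.5 and 46.3 CPM in KO and 14.5, 19.1, 39.6, 52.8, 80.8 and 38.9 CPM in WT. Its median was -0.26 without WT stress replicate 5 and -0.22 without the 3 libraries with thalamic transcripts, and -1.06 with the choroid plexus level and -0.85 with the thalamic level as a further term.

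**Figure D4:**
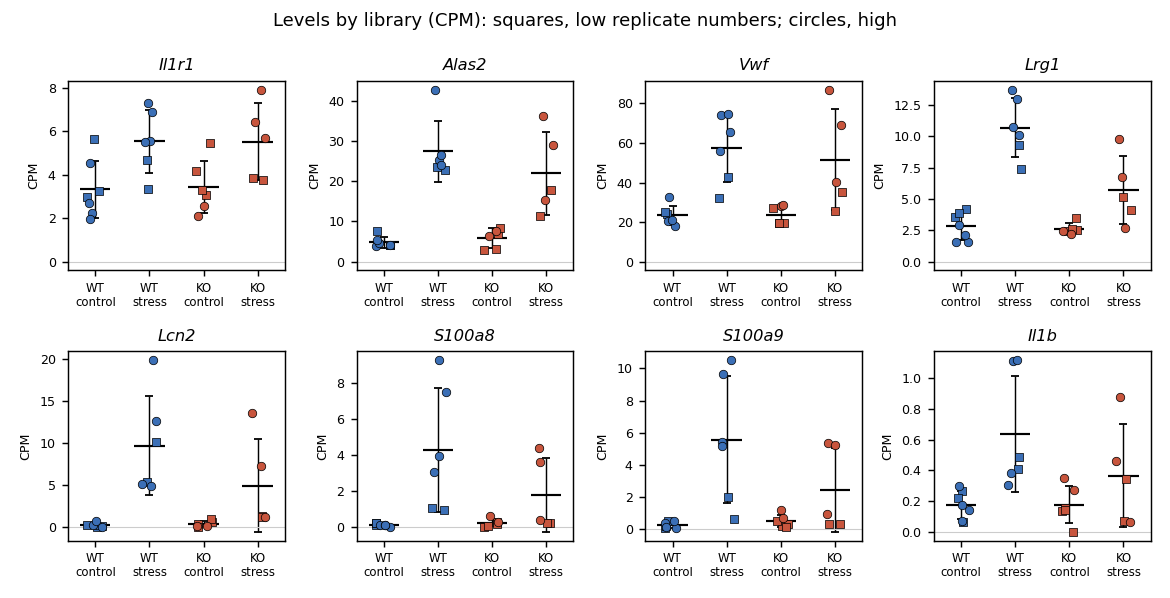
Levels in CPM (y axis, linear) of Il1r1 and 7 genes known to be high in stressed WT mice, by group (x axis); squares are libraries of the low replicate numbers, circles the others, the line is the mean and the bar 1 SD. Il1r1 averages 5.56 CPM in WT stress and 5.54 CPM in KO stress, and Lrg1 averages 10.7 and 5.71 CPM with overlapping groups.

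Activity and stress hormone genes were given next. Of 30 immediate early genes, which neurons switch on within minutes of firing, 1 had a log2 fold change above 0, the median was -0.45 (controls 0.24), and 0 were higher and 2 lower at an unadjusted p under 0.05 (2.65% of all genes lower). Fos was at 16.7, 18.2, 33.7, 30.9 and 35.96 CPM in KO stress replicates 1 to 5 and 17.7 to 101 CPM (median 26.9) in the WT stress libraries, with WT stress replicates 3 and 4 far above all the others, and a difference of -0.67 ± 0.40, 95% interval -1.56 to 0.22, adjusted p = 0.702. The 2 members with an unadjusted p under 0.05 were Gadd45b at 15.9 ± 3.63 CPM in KO stress and 24.8 ± 9.23 CPM in WT stress and Klf2 at 22.2 ± 3.99 CPM in KO stress and 32.01 ± 14.1 CPM in WT stress. Summed, the list stood at 1228, 1266, 1290.1, 1917 and 1343 CPM in KO and 1577, 1478, 3838, 2833, 1204 and 1633 CPM in WT. Its median moved to -0.28 without WT stress replicate 3, and to -0.077 with the choroid plexus level as a further term. Among 26 genes that respond to glucocorticoids the median was 0.10, with 4 higher and 1 lower at an unadjusted p under 0.05 (3.24% and 2.65% of all genes). That median was 0.020 without KO stress replicate 2, 0.22 in replicates 1 and 2 alone and -0.034 in replicates 3 and above. Sgk1, a kinase induced by corticosterone, was at 156, 149, 143, 139.9 and 158 CPM in KO stress replicates 1 to 5 and 83.03 to 151 CPM (median 106) in the WT stress libraries (0.46 ± 0.15, 95% interval 0.12 to 0.79, adjusted p = 0.702). Klf9, a transcription factor of the same response, was at 57.4 ± 10.8 CPM in KO stress and 45.1 ± 8.02 CPM in WT stress (0.37 ± 0.14, 95% interval 0.064 to 0.68, adjusted p = 0.702). Fkbp5, the co-chaperone of the glucocorticoid receptor, overlapped throughout at 75.1, 91.5, 45.2, 84.5 and 61.6 CPM in KO stress replicates 1 to 5 and 54.7 to 91.8 CPM (median 67.1) in the WT stress libraries (0.036 ± 0.17, 95% interval -0.34 to 0.41, adjusted p = 0.957). In controls its difference was -0.39 (adjusted p = 0.999).

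The highest medians among the lists belonged to tissues that border the hippocampus. All 23 choroid plexus genes, from the epithelium that secretes cerebrospinal fluid, had log2 fold changes above 0, with a median of 1.43 (controls -0.27) and 6 members at an unadjusted p under 0.05 (3.24% of all genes), but none passed the threshold and none separated the groups. Ttr, transthyretin, the main secreted protein of this epithelium, was at 1354, 1462, 1919, 1718 and 724 CPM in KO stress replicates 1 to 5. In WT stress replicates 1 to 6 it was at 98.2, 6.87, 10.6, 642, 2010.1 and 11.3 CPM. All 5 KO libraries and WT stress replicates 4 and 5 were thus high, and 4 WT libraries low, so that the fitted difference was 2.39 ± 1.60, 95% interval -1.25 to 6.02, adjusted p = 0.702. Cldn2, the claudin of this epithelium, was at 7.83, 4.7004, 8.59, 6.65 and 5.66 CPM in KO stress replicates 1 to 5 and 0.136 to 8.98 CPM (median 0.508) in the WT stress libraries, with WT stress replicate 5 as the highest library of all (2.12 ± 0.90, 95% interval 0.10 to 4.13, adjusted p = 0.702). Sostdc1 and Lbp had the smallest p, with 1.66 ± 0.54 and 1.04 ± 0.39. The summed level was 2048, 2153, 2934, 2412 and 1278 CPM in KO and 314, 249.5, 307, 1152, 2959 and 210.2 CPM in WT, and no listed marker was at 0.

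Ependymal and motile cilia genes, of the ventricle lining, had 13 of 13 tested members above 0, a median of 0.89 and 5 members higher at an unadjusted p under 0.05 (3.24% of all genes). With the choroid plexus level as a further term the median was 0.12, and with the thalamic level 0.43. Foxj1, the regulator of motile cilia, was at 20.8, 25.2, 35.1, 19.2 and 21.5 CPM in KO stress replicates 1 to 5 and 10.1 to 27.3 CPM (median 11.7) in the WT stress libraries (0.77 ± 0.27, 95% interval 0.17 to 1.38, adjusted p = 0.702). WT stress replicate 5 was the WT library inside the KO range. Rarres2, chemerin, and Hydin, a protein of the ciliary central pair, gave 0.59 ± 0.18 and 1.47 ± 0.47. Summed, the list was at 70.05, 78.1, 103, 58.9 and 60.3 CPM in KO and 43.6, 32.4, 25.7, 35.9, 83.6 and 37.7 CPM in WT.

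Peptide genes of hypothalamus and amygdala had 14 of 17 members above 0 and a median of 1.14 (controls 0.40), with 3 higher at an unadjusted p under 0.05 (3.24% of all genes). The median was 0.53 without KO stress replicate 3, 0.16 with the choroid plexus level as a further term and 0.11 with the thalamic level. Avp, vasopressin, was at 60.1, 48.4, 60.01, 1.097 and 1.78 CPM in KO stress replicates 1 to 5 and 0.0381 to 10.8 CPM (median 0.789) in the WT stress libraries. KO stress replicates 1 to 3 were far above the others, WT stress replicate 5 was next, and KO replicates 4 and 5 were at 1.10 and 1.78 CPM. Hcrt, orexin, had the same libraries high, at 42.2, 35.6, 56.2, 0.366 and 5.26 CPM in KO stress replicates 1 to 5 and 0.114 to 25.7 CPM (median 0.266) in the WT stress libraries. Thalamus and habenula genes had 23 of 25 above 0 and a median of 0.76 (controls 0.33), with 0 at an unadjusted p under 0.05. Their summed level was alike in the groups, at 2510 to 3671 CPM (median 3227) in KO and 2711 to 3714 CPM (median 3237) in WT. Their median was -0.014 with the choroid plexus level as a further term. Tcf7l2, a transcription factor of thalamic neurons, was at 53.98, 45.5, 109, 9.58 and 86.9 CPM in KO stress replicates 1 to 5 and 5.99 to 105 CPM (median 18.4) in the WT stress libraries, highest in KO replicates 3 and 5 and WT replicate 5. In that order the summed thalamic list was at 2868, 2510 and 3007 CPM. Its highest sum, 3714 CPM, was in WT stress replicate 6, where Tcf7l2 was lowest. The sum thus did not follow Tcf7l2, and alike sums do not show an alike thalamic content. Striatal markers had a median of 0.46 under stress and 0.58 in controls, with 14 of 17 above 0, and 0.11 in the stressed replicates 3 and above. Pomc, the precursor of the melanocortins, and Penk, proenkephalin, gave 1.66 ± 0.59 and 0.58 ± 0.23. Penk is on both the striatal and the hypothalamic list.

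The count of 0 did not hold in every subset of libraries. Without WT stress replicate 5 the count went from 0 to 22 genes, 17 higher and 5 lower in KO. These include 2 choroid plexus genes (Cldn2, Prlr), 2 ependymal genes (Foxj1, Pifo) and the habenular Gpr151. Without the 3 libraries with thalamic transcripts it was 7, of which 5 were also among the 22 (Col9a3, Dsc3, Foxj1, Nov and Slc16a8). The thalamic marker Gbx2, at 2.56, was among the 7, so this subset still held libraries with thalamic transcripts. In replicates 1 and 2 alone, 2 libraries against 2, it was 163, with 142 higher and 21 lower, and 18 of the 23 choroid plexus genes, 12 hypothalamic, 9 thalamic and 8 striatal genes were among the higher ones. The lower ones held 3 CA1 and CA3 pyramidal genes (Dcn, Fibcd1 and Nov), the immediate early gene Fosl2 and 1 gene of activated endothelium, Lcn2. In none of the 3 subsets was a listed interleukin-1 ligand, receptor or signalling gene called. The calls were 22 of 15658, 7 of 15910 and 163 of 15875 genes tested. With calls this rare, 0 among lists of 18 and 31 genes says little about those genes. With the choroid plexus level as a further term 124 genes had an unadjusted p under 0.05, with the thalamic level 290, and 0 passed the threshold in either. The choroid plexus level is itself higher in the KO libraries, apart from WT stress replicate 5, so genotype and this level can be told apart only in part. How far tissue at the border of the dissection enters each single gene's difference was not tested.

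**Figure D5:**
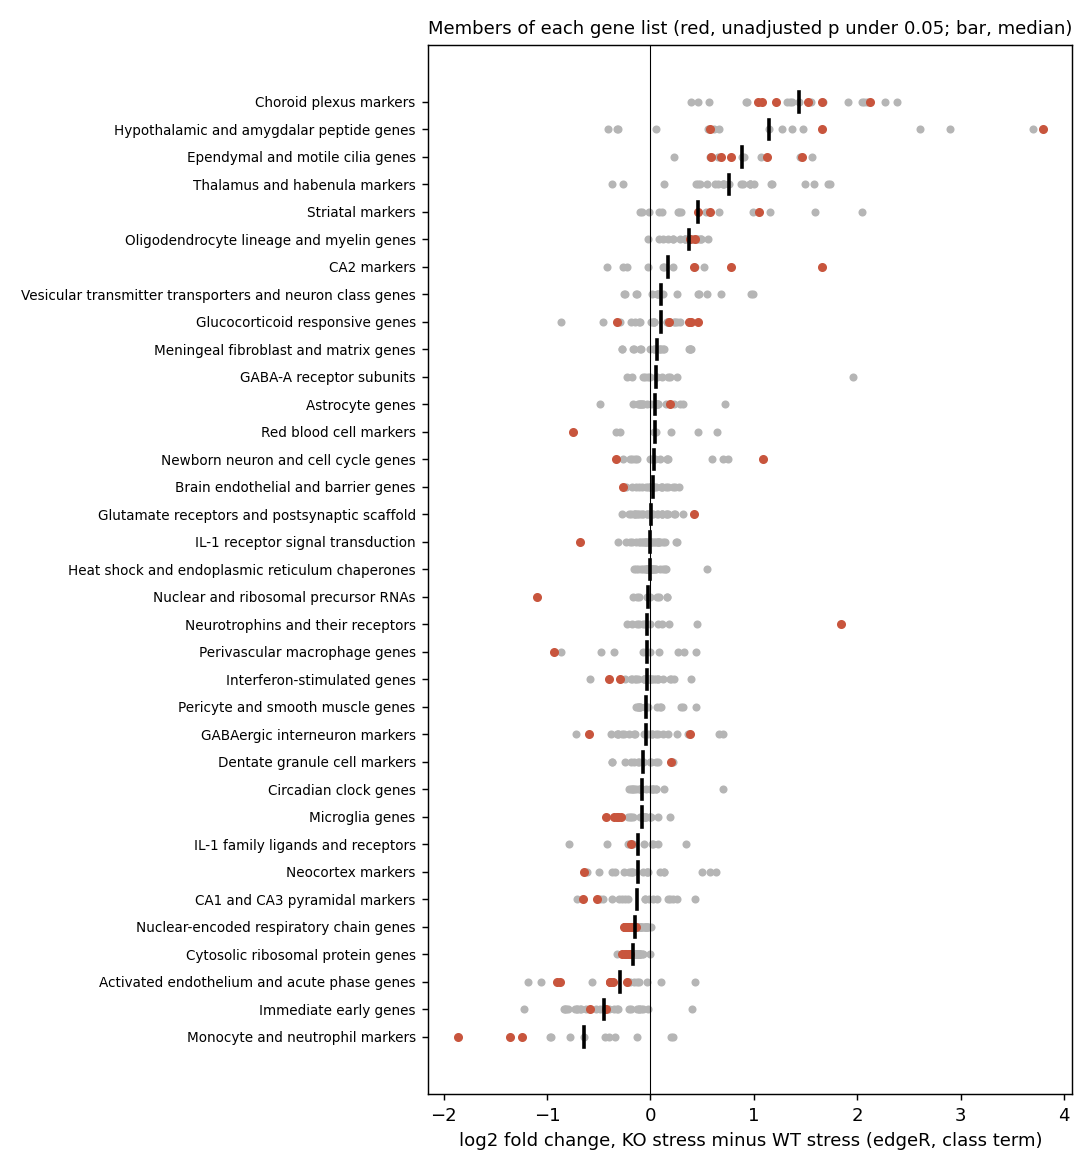
Log2 fold change of KO stress minus WT stress (x axis) for each tested member of the gene lists with at least 5 tested members (y axis, ordered by median); red points have an unadjusted p under 0.05, the bar is the list's median, and no gene passed the adjusted threshold. Choroid plexus genes have the highest median, 1.43, and monocyte and neutrophil genes the lowest, -0.64.

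Among glial cells, oligodendrocyte and myelin genes had 22 of 23 members above 0, a median of 0.37 (controls 0.12) and 2 higher at an unadjusted p under 0.05 (3.24% of all genes). Mbp, myelin basic protein, was at 4569.8, 4314, 6201, 3588 and 4808 CPM in KO stress replicates 1 to 5 and 2418 to 4521 CPM (median 3616) in the WT stress libraries (0.38 ± 0.17, 95% interval 0.0090 to 0.76, adjusted p = 0.702). The list's median was 0.21 without KO stress replicate 3 and 0.049 with the thalamic level as a further term. Microglia genes had 3 of 23 above 0, a median of -0.082 and 5 lower at an unadjusted p under 0.05 (2.65% of all genes), with the intervals of all 23 within 2-fold. Cd68, a lysosomal protein of phagocytes, was at 5.47, 7.23, 7.32, 8.78 and 6.55 CPM in KO stress replicates 1 to 5 and 7.14 to 11.7 CPM (median 10.3) in the WT stress libraries (-0.43 ± 0.12, 95% interval -0.70 to -0.16, adjusted p = 0.702). The complement genes C1qa, C1qb and C1qc and the adaptor Tyrobp were the other 4. C1qa was at 65.7 ± 11.1 CPM in KO stress and 82.96 ± 13.2 CPM in WT stress (-0.33 ± 0.13, adjusted p = 0.702). The microglial median was 0.0016 in replicates 1 and 2 alone, -0.17 in replicates 3 and above, -0.030 without KO stress replicate 3 and -0.14 without KO stress replicate 4. It was -0.0085 with the choroid plexus level as a further term and 0.0095 with the thalamic level. Perivascular macrophage genes had a median of -0.036, with Pf4 at 0.629 ± 0.311 CPM in KO stress and 1.22 ± 0.272 CPM in WT stress. The median of that list was 0.031 in replicates 1 and 2 alone and -0.48 in replicates 3 and above. Astrocyte genes had a median of 0.044, with 13 of 23 above 0.

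Markers of hippocampal neurons had medians on both sides of 0. CA1 and CA3 pyramidal markers had a median of -0.13 with 7 of 20 above 0, dentate granule markers -0.072 with 5 of 16, and interneuron markers -0.045 with 11 of 24. Glutamate receptor and scaffold genes had a median of 0.0016, with the intervals of 27 of 28 within 2-fold. Nov, a matrix protein of CA1 pyramidal cells, was at 76.5, 80.5, 65.4, 77.96 and 71.1 CPM in KO stress replicates 1 to 5 and 58.8 to 141 CPM (median 123) in the WT stress libraries, and without WT stress replicate 5 the lowest WT library would be 111 CPM. Its log2 fold change was -0.65 ± 0.19, 95% interval -1.06 to -0.24, adjusted p = 0.702, and -0.78 without that library, where its adjusted p was 0.0261. Over the other settings, apart from leaving out each library in turn, the difference of Nov ran from -0.73 to -0.24. Mpped1, a pyramidal marker, was at 166 ± 41.3 CPM in KO stress and 242 ± 63.2 CPM in WT stress (-0.52 ± 0.20, adjusted p = 0.702). CA2 markers had a median of 0.17, with 3 of 12 higher at an unadjusted p under 0.05 (3.24% of all genes): Sostdc1, which is also on the choroid plexus list, Amigo2 at 26.9 ± 2.63 CPM in KO stress and 20.4 ± 6.21 CPM in WT stress and Map3k15.

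Housekeeping lists had small shifts shared by most members. Of 44 nuclear-encoded respiratory chain genes 1 was above 0, the median was -0.15 (controls 0.018), and 15 were lower at an unadjusted p under 0.05 (2.65% of all genes). Ndufa3 of complex I was at 98.01 ± 13.4 CPM in KO stress and 116 ± 19.8 CPM in WT stress (-0.26 ± 0.093, adjusted p = 0.702), and Cox6b1 of complex IV at 236 ± 26.9 CPM in KO stress and 271 ± 35.4 CPM in WT stress (-0.21 ± 0.079, adjusted p = 0.702). Of 51 ribosomal protein genes 0 were above 0, the median was -0.17, and 5 were lower at an unadjusted p under 0.05. Rpl35 had the smallest p of the ribosomal genes, at -0.24 ± 0.10, 95% interval -0.46 to -0.027, and the members ran from -0.33 to -0.0077. All intervals of both lists lay within 2-fold. With the choroid plexus level as a further term the respiratory chain median was -0.082 and the ribosomal median -0.077. With the thalamic level they were -0.10 and -0.071. Members of such lists vary together across libraries, so their counts are not independent.

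The same genotype contrast in unstressed mice, from 6 KO and 7 WT control libraries, gave 0 of 15655 genes (0%) at the threshold, with 623 at an unadjusted p under 0.05 (DESeq2 called 2). Among genes tested in both contrasts 1.96% were higher and 2% lower in KO controls at an unadjusted p under 0.05. Of the 500 such genes higher in KO under stress, 7 were also higher in controls, which is 1.4% of the stress genes and 2.3% of the control genes: Avp, Efs, Fhdc1, Myadml2, Pomc, Scx and Slc25a10. Of the 415 lower under stress 5 were also lower in controls (1.2% and 1.61%): 2310002F09Rik, Ermard, Pcsk5, Sbsn and Trpc4. These 12 were named because the counts are small, after their values were seen.

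In a test of the difference between both contrasts over all 24 libraries, 0 of 16313 genes (0%) passed the threshold, with 538 at an unadjusted p under 0.05, a smallest adjusted p of 0.958 and 0 calls by DESeq2. The 5 smallest p belonged to Lst1, Serpina1d, Spef2, Znrf2 and Inha. Lst1, a transcript of myeloid cells, averaged 1.59, 2.501, 1.902 and 1.47 CPM in the WT control, WT stress, KO control and then KO stress libraries, with an interaction of -1.06 ± 0.28 on the log2 scale. Spef2, a protein of cilia and flagella, averaged 0.395, 0.174, 0.242 and 0.731 CPM in the same order (2.81 ± 0.79). Under stress every KO library of Spef2 was above every WT library, as in 23 (0.146%) of the 15794 genes tested. The same libraries took part in its choice, and its WT stress mean is near the floor of 0.0854 to 0.115 CPM. Znrf2, a ubiquitin ligase, averaged 9.97, 8.66, 8.61 and 11.02 CPM, and Inha, the inhibin α subunit, 40.1, 46.1, 45.7 and 38.1 CPM. Serpina1d, a liver protease inhibitor with near-identical copies, averaged 0.516, 0.0242, 0.126 and 1.53 CPM, and its counts depend on how shared reads were assigned.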

How the data were processed

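Read counts per gene, whole numbers with no normalization, were deposited by the authors for each library. The submitters' processing notes name STAR, DESeq2 and build mm10 (per the labels); the counter, its strand setting and its handling of shared reads are not named in the sources used here. Of counts from 1 to 10, 71.0% to 74.8% were even in the stressed libraries, so both mates of a fragment were probably counted, and intervals cover counting error and library spread only. Groups and replicate numbers came from the titles.

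From the 24062 genes listed, 15794 passed the edgeR filter (minimum count 10) in the 11 stressed libraries. They were tested with edgeR 4.0.16 (R 4.3.3; TMM factors, robust quasi-likelihood fit, terms for replicate class and genotype, 8 residual degrees of freedom), with Benjamini-Hochberg adjustment over all genes and a threshold of 0.05. The SE is the log2 fold change divided by the root of F, and its 95% interval is unadjusted. CPM values use TMM factors over all 24 libraries. The script was tested on simulated counts. DESeq2 1.42.0 and limma 3.58.1 were alternatives, with other filters, scalings, terms and subsets of libraries. Positions are from GENCODE M21. No libraries were near-duplicates (smallest mean chi-square per gene 11.0).

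Named genes are 10 always given, 5 neighbours of Il1r1 a side, the 20 smallest p at 1 CPM or more, the 2 smallest p of each list with 5 tested members, and 5 per interaction; others (Ttr, Cldn2, Foxj1, Avp, Hcrt, Tcf7l2, Mbp, Myd88, Il1a, Il1rn, Il1rap, Ackr1, Osmr, Ly6a and the called genes of subsets) were chosen after their values were seen. Some genes that the rule names are not reported here. The comparison, its class term and the 36 gene lists were chosen with earlier results of these data known.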

Additional observations from a re-analysis of the deposited data

Results flagged for a closer look

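In 14 of 302 groups checked (each named gene and gene list, in the 6 WT stress and in the 5 KO stress libraries), 1 library lay far from the others by Dixon's test at its 95% critical value. Chance flags about 1 in 20 groups, or 15.1 of 302, so the number as a whole is close to that. Of the 14, 7 were in WT stress replicate 5. In that library Alas2 was at 42.7 CPM (22.6 to 26.5 in the other WT stress libraries), and the summed red blood cell list at 234 CPM (184 to 199). Plekhg1, a thalamic marker, was at 60.1 CPM (12.9 to 14.8), Nov, a pyramidal cell gene, at 58.8 CPM (111 to 141) and Igfbp2, a meningeal and choroid plexus gene, at 78.9 CPM (46.4 to 52.3). Creb3l2 was at 5.77 CPM (3.26 to 3.99), and the GABA-A subunit Gabre at 1.65 CPM (0 to 0.34).

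The other WT stress libraries had 4. Replicate 1 had Abcc9, a potassium channel regulator of pericytes, at 4.32 CPM (6.88 to 7.87) and Cox6b1 at 340 CPM (245 to 277). Rnf149, a neighbour of Il1r1, was at 19 CPM in replicate 4 (20.9 to 21.6), and Slc25a37, the mitochondrial iron importer mitoferrin 1, at 20.5 CPM in replicate 6 (25.1 to 28). Among KO stress libraries replicate 2 had Mob1a at 1.21 CPM (3.5 to 4.46) and Abcc9 at 5.48 CPM (8.92 to 10), and replicate 4 had the summed immediate early genes at 1920 CPM (1230 to 1340).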

How the results depend on the processing

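Over 26 other settings the count of genes that differ between KO and WT under stress stayed at 0 in all but 3: it was 163 in replicates 1 and 2 only, 7 without the 3 libraries with thalamic transcripts and 22 without WT stress replicate 5. Leaving out each library in turn gave 0 to 22, and only WT stress replicate 5 gave a count above 0. No class term, 4-group fits over 24 libraries, RLE factors, DESeq2, limma voom, 2 other filters, replicates 3 and above only, tissue terms and a bias-adjusted fit (added after seeing the data) gave 0. At an unadjusted p under 0.05 DESeq2 gave 1100 genes and limma voom 2744. DESeq2 gave 2 genes, both lower, for the class by genotype interaction in place of 0, 1075 (612 higher, 463 lower) for the class term in place of 336, and 2 for the control contrast in place of 0. Replicate numbers do not pair the samples: deviations of same-numbered KO and WT libraries correlated at 0.244, 0.117, -0.274, 0.423 and 0.367, and 2 of 5 KO libraries correlated best with their own number. With a replicate block in place of the class term the count was 0 (647 at an unadjusted p under 0.05). Of 115 named genes 92 kept their sign in all settings, and 23, Il1r1 and Fkbp5 among them, changed it in at least 1; 3 of the 23 (Igf2, Igfbp2 and Ppp1r1b) were called as higher in KO in replicates 1 and 2 only, at 1.22, 0.71 and 1.01. In replicates 3 and above Igf2 was at -0.085 and Ppp1r1b at -0.16, and with the choroid plexus term Igfbp2 was at -0.13 and Igf2 at -0.057, none of them called. Leaving out each library in turn, the choroid plexus median ran from 1.19 (without WT stress replicate 2) to 2.19 (without WT stress replicate 5), and the thalamic one reached 1.52 without WT stress replicate 5. The choroid plexus median was 2.40 in replicates 1 and 2 only, 0.87 in replicates 3 and above, 2.34 without the thalamic libraries, 1.07 with the thalamic term and 0.012 with the choroid plexus term, which is built from the same genes. Depth limits genes near the 3-count floor, such as Il1b and Retnlg.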

Other observations

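Gene lists outside the report's account had medians from -0.12 to 0.10 and no member past the threshold. Several of these medians had opposite signs in replicates 1 and 2 alone and in replicates 3 and above. In that order, meningeal genes had 0.42 and -0.19 and red blood cell markers -0.56 and 0.075. Transmitter transporters had -0.099 and 0.33, and heat shock and chaperone genes -0.15 and 0.095. Interferon-stimulated genes had a median log2 fold change of -0.036 with 11 of 29 above 0 and 2 lower at an unadjusted p under 0.05 (2.65% of all genes). These were Ifitm1 at 3.24 ± 0.873 CPM in KO stress and 4.47 ± 1.12 CPM in WT stress and Ifitm3, which restricts viral entry, at 17.3 ± 3.49 CPM in KO stress and 21.9 ± 5.91 CPM in WT stress. Red blood cell markers had a median of 0.044, and Hba-a2, an alpha globin, was at 5.198 ± 2.52 CPM in KO stress and 8.65 ± 2.08 CPM in WT stress (-0.75 ± 0.28, 95% interval -1.35 to -0.15, adjusted p = 0.702); the globin has a near-identical copy. Pericyte genes had a median of -0.040, meningeal genes 0.062 and neocortex markers -0.12. Cplx3, a complexin of deep cortical layers, was at 13.98 ± 4.99 CPM in KO stress and 20.6 ± 5.87 CPM in WT stress (-0.64 ± 0.22, 95% interval -1.12 to -0.16, adjusted p = 0.702).

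Circadian clock genes had a median of -0.081 with 7 of 19 above 0 and none at an unadjusted p under 0.05, and heat shock and chaperone genes -0.0088 with 12 of 26 above 0. Neurotrophins and their receptors had a median of -0.033. Newborn neuron and cell cycle genes had a median of 0.039. GABA-A subunits had a median of 0.052, transmitter transporters 0.10 and nuclear RNAs -0.021. Sex-linked genes had a median of 0.078 over 4 tested members.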
